A study of Mus musculus with 4 samples.

Results

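YAP and TAZ (genes Yap1 and Wwtr1), the 4 TEAD factors through which they reach DNA (Tead1 to Tead4) and 4 of their classic target genes (Ctgf, Cyr61, Ankrd1 and Amotl2) were examined for open chromatin in NMuMG, an established epithelial cell line from the normal mammary gland of the mouse. The 10 genes were chosen by name from what is known of the Hippo pathway, by a rule that used no measured value but with earlier results of these data known, out of 22350 protein-coding genes on chromosomes 1 to 19 and X. Ctgf and Cyr61 are the older symbols of Ccn2 and Ccn1. Accessibility was mapped by ATAC-seq, in which the Tn5 transposase cuts DNA that is not wrapped up in nucleosomes, and the data are 3 lists of accessible intervals.

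Cells of the vehicle list grew in complete medium, which holds serum and insulin, and received vehicle for 2 h. Cells of the TGFβ list received TGFβ1 at 5 ng per ml for 2 h in the same medium. The list of the 10 min experiment comes from cells that were first kept without serum and insulin for 6 h. There, the labels of the vehicle sample and of the TGFβ1 sample (5 ng per ml, 10 min) name the same list, so it is not assigned to a condition, and it differs from the other lists in medium as well as in time. A treatment label of that TGFβ1 sample gives 2 h, against its title and the protocol, and the title was followed. The labels describe 4 samples, 1 per condition, of a single cell line. Lists of single replicates were not analysed here. With 1 list per condition there is no replicate spread to set a difference against, so no test was made and each difference below is one between lists.

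The Hippo pathway is a kinase cascade that restrains growth at high cell density. Its kinases MST1/2 and LATS1/2 phosphorylate YAP and TAZ and so keep them out of the nucleus. When they are not phosphorylated, YAP and TAZ enter the nucleus, bind TEAD factors and activate genes of matrix, cytoskeleton and growth control, and in epithelial cells they are known to cooperate with AP-1 and with the SMAD factors that carry the TGFβ signal.

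A region here is an interval of at least 150 bp, joined with neighbours less than 1000 bp away. It belongs to a gene's transcription start site (TSS) when it comes within 1000 bp of any annotated TSS of that gene, and to its window when it overlaps the gene body with 20 kb on either side. A TGFβ-only region is one that overlaps no region of the vehicle list, whatever the 10 min list holds. Positions are in the mouse build mm9 with the GENCODE vM1 annotation. Each region carries a score from 540 to a cap of 1000, which ranks it within its own list by reproducibility. It is not a measure of how open the site is, and lists were not compared by it.

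The promoter sequences of the group are shown first because most of its accessible promoters held a letter match for TEAD. The search used GGAATG on either strand, the core of the TEAD consensus, and in the sequences below the matches are in capitals (CATTCC is the same match on the other strand). Each is the stretch of 250 bases before a RefSeq start of the gene (table built on GRCm38.p6), found again as a unique match in mm9. Those of Yap1, Wwtr1, Cyr61 and Ankrd1 touched a region in every list, and that of Tead3 touched a region in the TGFβ and 10 min lists. In Ankrd1 the capitals also mark CAGACA, the SMAD match.
Yap1, chr9:8004597-8004846, minus strand: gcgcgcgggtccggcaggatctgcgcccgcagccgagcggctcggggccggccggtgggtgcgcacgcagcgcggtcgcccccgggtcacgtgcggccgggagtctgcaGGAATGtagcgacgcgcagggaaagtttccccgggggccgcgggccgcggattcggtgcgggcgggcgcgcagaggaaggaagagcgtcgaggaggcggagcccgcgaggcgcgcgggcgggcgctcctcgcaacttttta
Wwtr1, chr3:57379833-57380082, minus strand: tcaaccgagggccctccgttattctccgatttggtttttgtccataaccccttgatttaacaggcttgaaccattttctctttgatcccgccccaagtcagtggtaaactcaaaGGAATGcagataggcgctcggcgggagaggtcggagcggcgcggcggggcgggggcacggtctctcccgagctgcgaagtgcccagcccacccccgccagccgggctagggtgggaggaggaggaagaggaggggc
Tead3, chr17:28487751-28488000, minus strand: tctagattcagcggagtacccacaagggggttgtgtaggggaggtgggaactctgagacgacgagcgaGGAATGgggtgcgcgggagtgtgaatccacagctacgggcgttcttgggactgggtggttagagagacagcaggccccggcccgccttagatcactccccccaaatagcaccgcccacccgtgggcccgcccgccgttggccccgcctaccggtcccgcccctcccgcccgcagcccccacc
Cyr61, chr3:145312950-145313199, minus strand: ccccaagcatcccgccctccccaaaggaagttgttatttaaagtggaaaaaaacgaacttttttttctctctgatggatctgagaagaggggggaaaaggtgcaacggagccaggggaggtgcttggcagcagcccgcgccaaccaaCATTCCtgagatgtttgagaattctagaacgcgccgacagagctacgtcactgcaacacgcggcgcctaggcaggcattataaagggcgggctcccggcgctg
Ankrd1, chr19:36194335-36194584, minus strand: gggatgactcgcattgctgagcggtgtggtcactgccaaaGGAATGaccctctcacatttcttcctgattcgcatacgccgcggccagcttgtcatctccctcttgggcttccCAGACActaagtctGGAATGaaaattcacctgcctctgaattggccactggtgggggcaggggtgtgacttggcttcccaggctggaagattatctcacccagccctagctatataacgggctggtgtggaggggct

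In Cyr61 the match began 103 bases before the start, in Wwtr1 136, in Yap1 141 and in Tead3 182 bases before it. Ankrd1 held a pair of matches, 210 and 123 bases before the start, with the SMAD match between them at 137. For 2 further promoters only the site itself is shown, since it lies in a leader exon of the mm9 annotation. The Amotl2 site lay inside a region of every list. The Tead3 site lay inside the 10 min region alone, outside the edge of the TGFβ region.
Amotl2, chr9:102620057-102620086, plus strand: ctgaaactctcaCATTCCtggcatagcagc
Tead3, a second RefSeq start, chr17:28487646-28487675, minus strand: ccgggctCATTCCgtaCATTCCggccatcc

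Of the 7 members with a RefSeq entry, 6 held the TEAD match in the 250 bases before at least 1 of their starts, against 14.4% of 27025 genes in the table (95% Wilson interval 13.9 to 14.8%). Tead2 was the member without it. The entries of Tead1, Tead4 and Ctgf were not in the table. AP-1 (TGANTCA) had no match in these promoters and SMAD (CAGACA or GTCTAGAC) had a match in 1 of the 7, against 7.82% and 19.5% of genes. A letter match describes the sequence and is no evidence of binding.

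Nearly every member had an open TSS. With vehicle, 8 of the 10 members had a region at a TSS, all but Tead2 and Tead3, against 41% of protein-coding genes. With TGFβ, all 10 had such a region, against 47.6% of genes, and at 10 min 9 had one, all but Tead2, against 46.3%. The 8 members open in the vehicle list were open in every list, which was so for 39.9% of genes. Tead2 and Tead3 were the 2 members with a TSS region in the TGFβ but not the vehicle list, a pattern of 7.24% of genes. The map of the promoters shows each of these regions at scale.

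**Figure D1:**
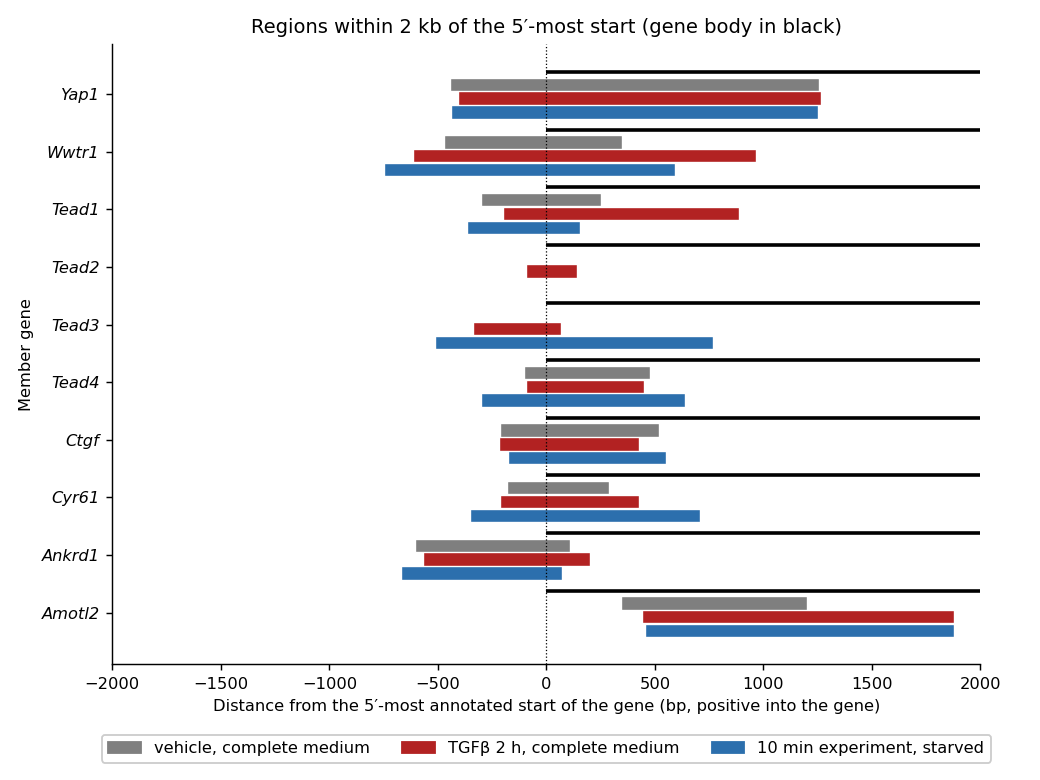
Regions within 2 kb of the 5′-most annotated start of each member (x axis, bp, positive into the gene), coloured by list, with the gene body as a black line. Tead2 has a region in the TGFβ list alone and Tead3 in the TGFβ and 10 min lists, while the other 8 genes have a region in every list. The Amotl2 region lies downstream of the 5′-most start, where further starts are annotated, and additional TSS regions of Yap1 and Tead1 lie outside this range.

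Over the whole length of these TSS regions, the TEAD letters were found in 8 of 8 members in the vehicle list, where 21.8% of the 9163 genes with a TSS region had them (20.9 to 22.6%). They were found in 9 of 10 members in the TGFβ list, against 25.6% of 10643 genes (24.7 to 26.4%), and in 9 of 9 in the 10 min list, against 29.3% of 10339 genes (28.4 to 30.2%). Members had the wider TSS regions in each list, and the part of width in these shares was not tested. The median summed width of a gene's TSS regions was 710 bp for members against 600 bp for all genes in the vehicle list, 695 against 673 bp in the TGFβ list and 1049 against 819 bp in the 10 min list. Counted by region instead, and within 200 bp of the centre, 7 of the 11 vehicle regions at a TSS in the windows held the letters against 14.4% of all such regions, 5 of 13 in the TGFβ list against 15.6% and 6 of 13 in the 10 min list against 14.4%. Of the other consensus letters, SMAD was matched in 3 of 8 members against 29.4% of genes with vehicle, in 5 of 10 against 34.2% with TGFβ and in 7 of 9 against 38.6% at 10 min. AP-1 was matched in 2 of 8 members against 11.6% with vehicle and in 1 of 9 against 15.9% at 10 min. With TGFβ, AP-1 was matched in 1 of 10 members against 16.6% of genes, and the CArG box of serum response factor in 1 of 10, Wwtr1, against 2.44%. The intervals are 95% Wilson intervals and cover the counting of genes alone.

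YAP and TAZ themselves differed in what surrounded their promoters. Yap1 encodes the coactivator YAP, and its main TSS region was broad and of almost the same width in each list, 1689 bp (vehicle), 1660 bp (TGFβ) and 1679 bp (10 min). A second region, 440, 407 and 353 bp wide in the same order, lay at an internal start of Yap1 near chr9:7965513-7965962 in a non-coding exon, where the TSS of the transcript RP23-349N15.1 also lies. No TGFβ region in the Yap1 window was absent from the vehicle list. The width limit removed TGFβ intervals of 95 bp (score 1000) and 144 bp (score 680) from this window. No vehicle interval of any width was found at either site. The 95 bp interval lay less than 1000 bp from the region at the internal start and would otherwise have been joined to it. The equal counts of the vehicle and TGFβ lists at Yap1 therefore rest on the removal of the 144 bp interval. The 10 min list alone held a region 12973 bp upstream of the gene, 579 bp wide and with a score of 572, above 7.87% of its list.

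Wwtr1 encodes TAZ, the partner coactivator, and by number its window differed most between the vehicle and TGFβ lists. It held 3 regions with vehicle, 9 with TGFβ and 5 at 10 min, and 6 of the 9 TGFβ regions overlapped no vehicle region. Per 100 kb this was 1.87 with vehicle and 5.62 with TGFβ, against 4.65 and 13.9 at Cyr61, 0 and 5.18 at Tead2 and 3.38 and 8.46 at Tead3, whose windows are shorter. Of these 6, 5 lay in introns and 1 beyond the 3′ end of the gene. The 3 of highest score were all at the cap: a region of 335 bp lying 65286 bp into the gene, one of 404 bp at 73934 bp and one of 1331 bp at 20572 bp. The first was in the TGFβ list alone, while the others were also in the 10 min list. Those in the TGFβ list alone further included intervals of 168 bp (score 684) and 198 bp (score 809), close to the smallest width kept. The TSS region was 807 bp wide with vehicle, 1567 bp with TGFβ and 1325 bp at 10 min.

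**Figure D2:**
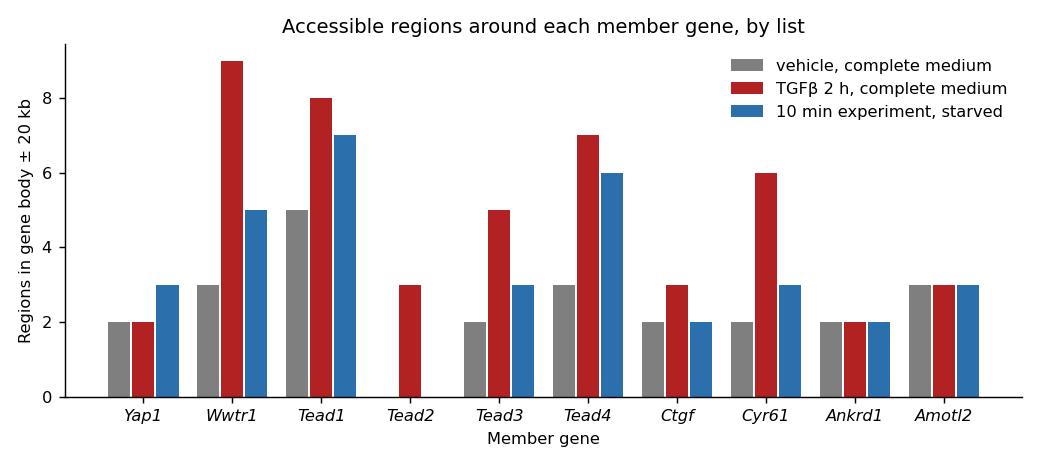
Number of accessible regions in the gene body ± 20 kb of each member (y axis), with 1 bar per list. The largest difference between the TGFβ and vehicle bars is at Wwtr1, with 9 against 3, and Yap1, Ankrd1 and Amotl2 have equal bars for these lists.

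The TEAD genes encode the DNA-binding partners of YAP and TAZ, and Tead1 and Tead4 had an open promoter in every list while Tead2 and Tead3 did not. Tead1 held 5, 8 and 7 regions (vehicle, TGFβ, 10 min) over a window of 267 kb. Its promoter region measured 541, 1073 and 506 bp in that order and held 3, 2 and 3 TEAD matches, and it is shared with the TSS of the neighbouring transcript 2310014F06Rik. A further 4 loci inside introns of Tead1 were open in every list. The 3 TGFβ-only regions were intronic, 154, 360 and 190 bp wide, and the 360 bp region was at the score cap. The 10 min list alone had a region at an internal start of Tead1, 345 bp wide with a score of 592, and another beyond its 3′ end, 356 bp wide with a score of 564.

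Tead2 had no region in its window in the vehicle or 10 min list. The TGFβ list held 3 regions there: one of 222 bp over the TSS at the score cap, one of 304 bp in an intron with a score of 671, and one of 244 bp lying 17138 bp upstream with a score of 781. The TSS region was the narrowest of any member TSS in that list, rested on 1 summit (a local maximum of signal) and held no TEAD match, which made Tead2 the only member without that match in its TSS regions of the list. No vehicle interval of any width was found at this TSS.

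At Tead3 the promoter was open in the TGFβ list (392 bp, score 861) and in the 10 min list (1269 bp, score 922), and the vehicle list had no interval of any width at it. The window held 2, 5 and 3 regions in the order used above. Both vehicle regions lay at starts of other genes, Fance and Rpl10a, so no vehicle region there belonged to Tead3 by its TSS. The other 2 TGFβ-only regions were an intronic one of 377 bp (score 649) and one of 189 bp lying 17861 bp upstream (score 796). At the latter the vehicle list had an interval of 102 bp, below the width limit, so that the difference between lists at this site rests on that limit.

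Tead4 was open at its promoter in every list, with widths of 567, 530 and 924 bp in the vehicle, TGFβ and 10 min lists and 3 TEAD matches in each. Its window held 3, 7 and 6 regions. Of the 4 TGFβ-only regions 3 were also present in the 10 min list. The one of highest score, at the cap, was an intronic region of 343 bp, 6890 bp upstream of an internal start. Inside its edges it held 2 AP-1 matches and 1 CArG match, and within 200 bp of its centre also 1 TEAD and 1 SMAD match. The wider 10 min region at this site, 537 bp, held 1 TEAD match and 2 SMAD matches in addition to the AP-1 and CArG matches inside its own edges. The others were 448 bp wide with a score of 661, 165 bp with a score of 627 and 169 bp with a score of 562. A 10 min region of 636 bp near the 3′ end of the gene had a TGFβ interval of 116 bp beneath it, which the width limit removed.

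**Figure D3:**
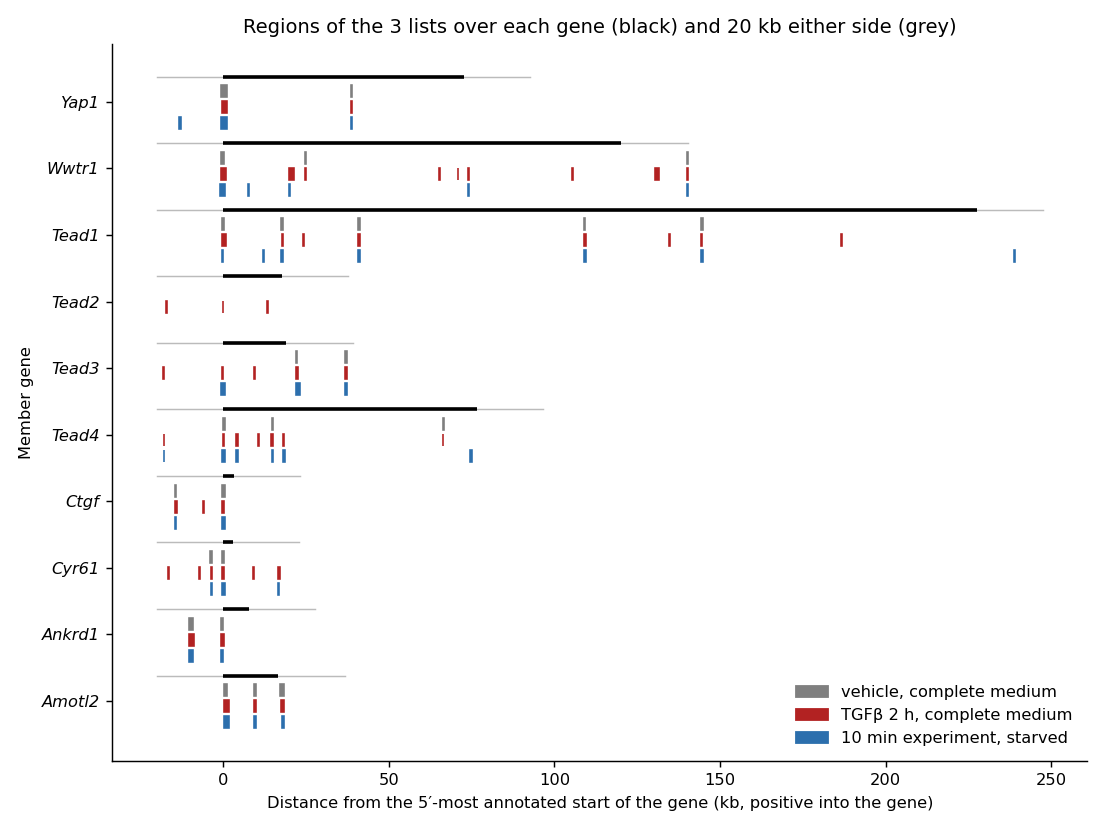
Every region of the 3 lists over each member (black line) and 20 kb on either side (grey line), by distance from the 5′-most annotated start (x axis, kb, positive into the gene). The regions of Wwtr1 and Cyr61 that appear in the TGFβ row without a vehicle region above them lie away from the promoter, while Ankrd1 and Amotl2 show the same sites in every row.

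Among the target genes, Ctgf and Cyr61 encode secreted matricellular proteins that are the most used readouts of YAP activity. The Ctgf TSS region was 722, 633 and 718 bp wide in the same order, and each held 3 matches to GGAATGT, a longer form of the TEAD letters that contains the shorter. It was at the score cap in the vehicle and TGFβ lists and at 581 in the 10 min list, above 9.99% of that list. A region about 14 kb upstream, 323, 455 and 256 bp wide, was present in every list, with a TEAD match in each. Ctgf had 1 TGFβ-only region, 321 bp wide, 5966 bp upstream of the start with a score of 754, and its centre held 2 TEAD matches, an AP-1 and a SMAD match.

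Cyr61 held 2 regions with vehicle, 6 with TGFβ and 3 at 10 min within a window of 43 kb. At 13.9 TGFβ regions per 100 kb this was the densest window of the group. Its TSS region (458, 626 and 1049 bp, shared with the TSS of Gm17501) and an upstream region at 3430 bp in the TGFβ list (586, 333 and 300 bp in the vehicle, TGFβ and 10 min lists) were open in every list. The 4 TGFβ-only regions lay outside the gene. The first was 514 bp wide, 16847 bp from the start on the 3′ side, at the cap, and also in the 10 min list. The others were in the TGFβ list alone: one of 323 bp lying 16518 bp upstream (score 990), one of 270 bp lying 7146 bp upstream (score 951) and one of 235 bp lying 9126 bp away on the 3′ side (score 908). The lowest of these scores was above 49.3% of the TGFβ list.

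The distal sequences below are those of distal regions (farther than 1000 bp from any annotated TSS) of the TGFβ list at members with a RefSeq entry that held at least 3 TEAD, AP-1 or SMAD matches, or a CArG box, within 200 bp of the centre. Of the 4 stretches 3 lie at TGFβ-only regions, as did 22 of all 35 distal TGFβ-list regions in the windows. The Cyr61 near upstream stretch, open in every list, holds a CArG box alone. That contrast is set by the choice of stretches, since the RefSeq limit leaves out Tead1, Tead4 and Ctgf. Regions open in every list also reached 3 matches at Tead1 (2 AP-1, 1 SMAD) and at Tead4 (1 TEAD, 1 AP-1, 1 SMAD). The printed sequences run from 15 bases before the first match to 15 after the last, on the strand of the gene. Capitals mark GGAATG (TEAD), TGANTCA (AP-1), CAGACA (SMAD; TGTCTG on the other strand) and, in the third, the CArG box.
Cyr61 3′ side, chr3:145296001-145296233, TGFβ and 10 min lists: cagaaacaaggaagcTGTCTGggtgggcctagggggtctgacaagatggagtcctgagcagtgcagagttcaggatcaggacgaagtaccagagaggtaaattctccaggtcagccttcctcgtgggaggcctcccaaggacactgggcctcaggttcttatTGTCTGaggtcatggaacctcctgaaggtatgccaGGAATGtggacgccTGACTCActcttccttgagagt
Cyr61 far upstream, chr3:145329449-145329589, TGFβ list: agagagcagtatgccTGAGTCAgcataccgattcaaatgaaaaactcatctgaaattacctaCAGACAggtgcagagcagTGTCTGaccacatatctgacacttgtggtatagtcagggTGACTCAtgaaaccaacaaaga
Cyr61 near upstream, chr3:145316399-145316438, every list: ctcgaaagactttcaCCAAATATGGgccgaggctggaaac
Wwtr1 intron, chr3:57314288-57314550, TGFβ list: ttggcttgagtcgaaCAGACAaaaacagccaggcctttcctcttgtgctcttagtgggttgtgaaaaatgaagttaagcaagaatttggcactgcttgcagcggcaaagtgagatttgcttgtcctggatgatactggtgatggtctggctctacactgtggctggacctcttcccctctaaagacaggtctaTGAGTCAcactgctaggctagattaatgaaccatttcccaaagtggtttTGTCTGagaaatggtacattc

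The Cyr61 region on the 3′ side held 1 TEAD, 1 AP-1 and 2 SMAD matches. The far upstream region held 2 AP-1 and 2 SMAD matches and no TEAD match, and the Wwtr1 intron held 1 AP-1 and 2 SMAD matches and no TEAD match.

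Ankrd1, which encodes a cardiac ankyrin repeat protein, and Amotl2, an angiomotin family member that binds YAP and restrains it, had the same sites open in every list. Ankrd1 had a TSS region of 698, 757 and 732 bp and an upstream region of 1147, 1325 and 1191 bp in the vehicle, TGFβ and 10 min lists. All 6 were at the score cap. The upstream region lay 9518 bp from the start in the TGFβ list and carried a TEAD match 30 bp from its centre and a CArG box 417 bp from it. Amotl2 had a TSS region of 845, 1425 and 1411 bp with 3 TEAD matches in each list, a region at 554, 733 and 557 bp of width in an intron, and one of 1143, 911 and 618 bp beyond its 3′ end. Neither gene had a TGFβ-only region in its window. For Ankrd1 this depends on the window edge, since a TGFβ region with a score of 806 lay 20934 bp outside the gene.

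Across the 10 windows, which span 965 kb, the lists held 24 (vehicle), 48 (TGFβ) and 34 (10 min) regions, out of 19648, 38532 and 26732 in all. TGFβ regions outnumbered vehicle regions by a ratio of 2 in the windows and of 1.96 over the whole lists, so the excess at the group was that of the lists as a whole. Its windows were denser than the average gene window in each list, with 2.49 against 1.5 regions per 100 kb in the vehicle list, 4.98 against 2.54 in the TGFβ list and 3.52 against 2.02 in the 10 min list. More TGFβ than vehicle regions were found at 7 of the 10 members (Wwtr1, Tead1 to Tead4, Ctgf and Cyr61), against 48.2% of genes, and the same 7 had at least 1 TGFβ-only region, against 50.2% of genes. No member had a vehicle region that was absent from the TGFβ list, against 6.93% of genes with such a region. Of the 48 TGFβ regions 24 were absent from the vehicle list, against 52.4% of all TGFβ regions, a share near the background.

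By role, the coactivators held 5, 11 and 8 regions in the vehicle, TGFβ and 10 min lists, the TEAD factors 10, 23 and 16, and the targets 9, 14 and 10. TGFβ-only regions numbered 6 at the coactivators, 13 at the TEAD factors and 5 at the targets, in windows of 273, 501 and 191 kb, or 2.2, 2.59 and 2.62 per 100 kb. When overlapping regions of the lists were joined into 53 loci, 9 of the 14 loci at targets were in every list, against 9 of 26 at TEAD factors and 4 of 13 at the coactivators, while 38.9% of all loci were in every list.

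By width and by place at a TSS, the shared and the TGFβ-only regions of the windows split much as those of the whole list did. A larger share of the TGFβ-only regions was at the score cap in the windows than in the whole list. The 24 shared TGFβ regions had a median width of 550.5 bp, 11 lay at a TSS of any gene and 18 were at the score cap. Of all shared TGFβ regions 46.8% lay at a TSS and 71.6% were at the cap, with a median width of 546 bp. The 24 TGFβ-only regions were narrower, with a median of 312.5 bp (154 to 1381 bp), 2 lay at a TSS, those of Tead2 and Tead3, and 7 were at the cap. Of all TGFβ-only regions 11.7% lay at a TSS and 13.9% were at the cap, with a median width of 281 bp. By place, 13 of the 24 lay in an intron of their member, 7 upstream, 3 downstream and 1 in an untranslated exon.

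**Figure D4:**
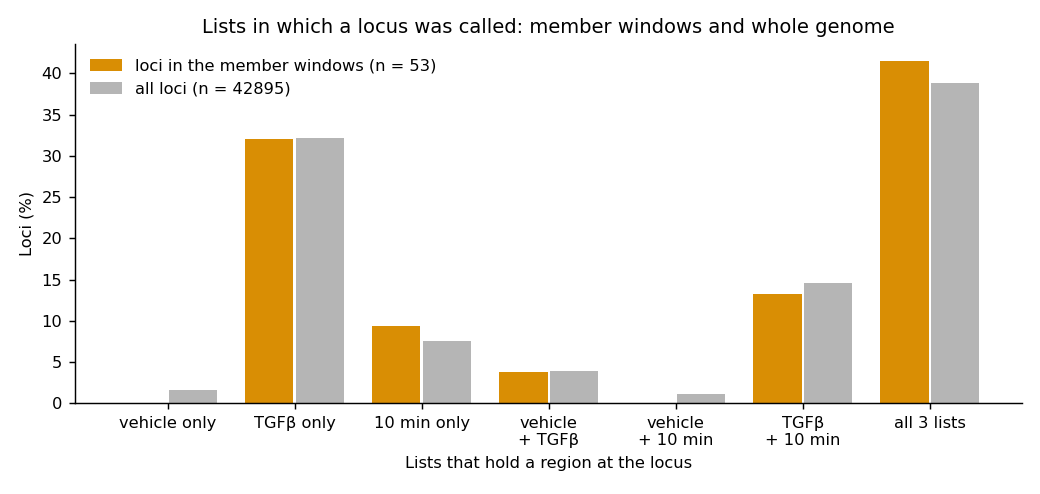
Share of loci (y axis, %) by the lists that hold a region there (x axis), for the 53 loci in the member windows and for all 42895 loci. Loci in every list make up 41.5% in the windows against 38.9% of all loci, and loci in the TGFβ list alone 32.1% against 32.2%.

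Of the 34 regions of the 10 min list in the windows, 22 overlapped regions of both complete-medium lists, 7 overlapped a TGFβ region alone, and 5 lay in neither, against 12.2% of all 10 min regions. No 10 min region overlapped a vehicle region alone. Counted as joined loci, 41.5% of those in the windows were in every list, against 38.9% of all loci. The TGFβ and 10 min lists alone held 13.2% against 14.6%, and the vehicle and 10 min lists alone 0 against 1.14%. The 7 regions that overlapped a TGFβ region alone were found at Wwtr1 (2), Tead3 (1), Tead4 (3) and Cyr61 (1). The 5 in neither list were at Yap1, Wwtr1, Tead1 (2) and Tead4. Since medium, time and the treatment behind this list differ together, their parts cannot be told apart.

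Away from any TSS, TEAD letters were found in a somewhat larger share of the member regions than of the lists. Of 35 distal TGFβ-list regions in the windows 12 held the TEAD match within 200 bp of the centre, against 28.8% of all 27584 distal TGFβ regions (28.3 to 29.3%). With vehicle it was 6 of 13 against 31.4%, and at 10 min 9 of 21 against 27%. Within 500 bp of the centre it was 12 of 13 against 51.4% with vehicle, 25 of 35 against 50.3% with TGFβ and 15 of 21 against 48.4% at 10 min. The longer letters GGAATGT went the other way in the TGFβ list within 200 bp, with 2 of 35 against 10.6%. Within 500 bp they went the same way as the shorter letters, with 11 of 35 against 18.6%. These are shares of few regions. In the TGFβ list AP-1 was matched in 17 of the 35, against 49.3%, SMAD in 15, against 40.2%, and the CArG box in 2, against 2.19%. Among them the 22 TGFβ-only regions held AP-1 in 12, SMAD in 12 and TEAD in 6, and the 13 shared regions held AP-1 in 5, SMAD in 3 and TEAD in 6. Over all distal TGFβ regions SMAD was matched in 41.9% of TGFβ-only and 37.1% of shared regions. AP-1 was matched there in 47.6% of TGFβ-only and 52.5% of shared regions, the other way round from the members. For TEAD the shares were 27.6% and 30.9%. The split at the members rests on few regions.

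**Figure D5:**
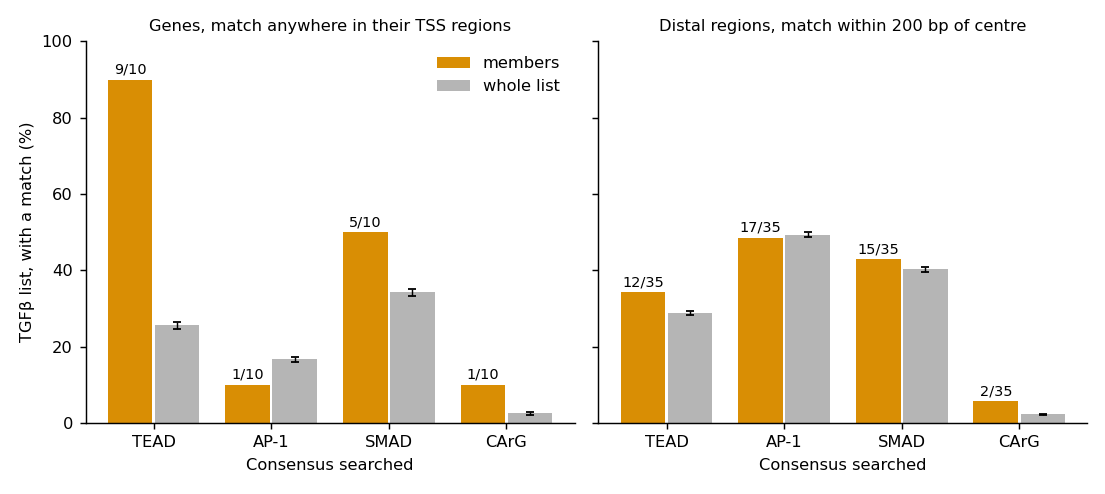
Share with a consensus match in the TGFβ list (y axis, %), for the members (orange, counts above the bars) and the whole list (grey, with 95% Wilson intervals). On the left the unit is a gene with a TSS region and TEAD stands at 9 of 10 members against 25.6%, and on the right it is a distal region, where TEAD stands at 12 of 35 against 28.8%.

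The upstream kinases, adaptors and partners of YAP had open promoters more often than the average gene. Of 24 such Hippo genes a TSS region was found at 19 with vehicle (41% of all genes), 20 with TGFβ (47.6%), 20 at 10 min (46.3%) and 18 in every list (39.9%), the kinases Stk3, Stk4, Lats1 and Lats2 among them. Wtip, an Ajuba-family LIM protein, and Vgll1 and Vgll2, cofactors that bind TEAD in place of YAP, had none in any list. The windows of the 24 genes held 72, 100 and 76 regions in the vehicle, TGFβ and 10 min lists. Of the 100 TGFβ regions 33 were TGFβ-only, against 52.4% of all TGFβ regions. These 33 were spread over 15 of the 24 genes, where 50.2% of all genes had at least 1. Amotl1, another angiomotin, had 6 of them, the TEAD cofactor Vgll4 had 5 and Wwc1 (KIBRA, an activator of LATS kinases) had 4.

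A list of 18 further targets of YAP known from other cells had a TSS region at 13 genes with vehicle, 15 with TGFβ, 14 at 10 min and 12 in every list, against the same shares of all genes (41%, 47.6%, 46.3% and 39.9%). Ccdc80 and Rbms3 had no TSS region in any. The windows of the 18 genes held 67, 104 and 73 regions. Of the 104 TGFβ regions 41 were TGFβ-only, against 52.4% of all TGFβ regions. These 41 were spread over 16 of the 18 genes, where 50.2% of all genes had at least 1. Asap1 (an Arf GTPase-activating protein), Crim1 (a membrane protein that binds BMPs) and Myof (myoferlin, a membrane repair protein) had 6 each. Lats2 and Ptpn14 stand in both lists of genes.

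Of the 40 distinct genes of both lists 5 had a TSS region with TGFβ but not with vehicle, as Tead2 and Tead3 did, or 12.5% against 7.24% of all genes. A TSS region in the TGFβ list alone, as at Tead2, was found at the TEAD cofactor Vgll3 (369 bp, score 570), at Igfbp3, which encodes a binding protein of insulin-like growth factors (180 bp, score 702), and at Fjx1 (988 bp, score 805). A TSS region in the TGFβ and 10 min lists, as at Tead3, was found at Ajuba, a LIM protein that binds LATS kinases (1008 bp and 280 bp), and at Tgfb2, which encodes a TGFβ ligand (460 and 600 bp). Wwc1 and Nt5e, which encodes the ectonucleotidase CD73, showed the converse, with a TSS region in the vehicle and 10 min lists and none in the TGFβ list. They were 2 of the 40 genes, and the share of all genes with this converse pattern was not counted. The Nt5e regions scored 544 and 546, near the lowest score of 540.

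The cells were checked against markers of their type. Krt8 and Krt18, keratins of simple epithelium, had a TSS region in every list, Cdh1 (E-cadherin) in the 10 min list, and Epcam and Cldn7 in none. Ptprc, Pecam1 and Pdgfra, markers of blood, endothelial and mesenchymal cells, had no TSS region in any list. The windows of these 3 genes held 0, 4 and 3 regions in the vehicle, TGFβ and 10 min lists, and all 4 TGFβ regions were TGFβ-only. Those of the 5 epithelial genes held 17, 20 and 17, with 7 TGFβ-only.

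The number of regions called depends on sequencing depth and library quality as well as on accessibility, the lists hold no counts, and their part in the longer TGFβ list was not tested. Read totals that accompany the study, not used as data here, are higher for the vehicle library than for the TGFβ library in complete medium. With the TGFβ list cut by score to the length of the vehicle list, 19648 regions, the member windows held 31 TGFβ regions against 24 and 10 of them were absent from the vehicle list. Of these 10, 4 were at Cyr61 and 3 at Wwtr1, Tead2 still had its TSS region and Tead3 did not.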

How the data were processed

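ATAC-seq of NMuMG cells was analysed from 3 peak lists for 4 samples. According to the study's methods, the authors aligned reads to mm9 with the ENCODE ATAC-seq pipeline, called peaks with MACS2 2.1.2 and kept peaks reproducible by the irreproducible discovery rate (IDR). A Tn5 shift for peak calling is not given in the sources used here. The deposited score (column 5) is the authors' scaled IDR with 1 line per summit. What served as replicates behind it was not settled, and the files hold no depth; read totals given with the study were not used as data.

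Intervals under 150 bp were dropped, gaps under 1000 bp merged, and a region took its highest score. The study's methods use the same width limit and merging distance. Regions overlapping by at least 1 bp were shared. Both strands were scanned for motifs, up to 200 bp from a region's centre and over whole regions at a TSS. Scripts (Python 3.11.15, numpy 2.4.6, matplotlib 3.10.9) were tested on simulated intervals. Genome and annotation were NCBIM37 with GENCODE vM1. No test between conditions was possible with 1 list per condition.

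The members and gene lists were chosen with earlier results of these data known. Named were all 10 members, genes of the 2 pathway lists whose TSS call differed between lists or was absent from all, the 3 of each with the most TGFβ-only regions, every region at a member TSS, and TGFβ-only or vehicle-only regions (all if at most 5 in a window, otherwise the 3 of highest score). The lower-scoring Wwtr1 intervals, the regions of the 10 min list alone, and Lats1, Lats2, Stk3 and Stk4, were named after their values were seen. The search over whole TSS regions was chosen after the data were examined.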

Additional observations from a re-analysis of the deposited data

How the results depend on the processing

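With 13 alternative settings 120 values were recomputed, and 96 stayed within 1.5 times the reported count. No paired analysis was possible because the conditions have a single list each. Peaks at or above the median score of their list left 4 members with a TSS region in the vehicle list, window regions of 7 (vehicle), 28 (TGFβ) and 13 (10 min), 10 min regions overlapping vehicle and TGFβ regions of 6 and 12, Hippo genes with a vehicle TSS region of 12, and YAP target list genes of 4, 8 and 7 in the vehicle, TGFβ and 10 min lists. With the TGFβ list at the vehicle list's length there were 31 window regions, 10 absent from the vehicle list, 3 vehicle regions absent from it, and 9 YAP target list genes with a TSS region. A minimum width of 300 bp gave 15 TGFβ-only and 1 vehicle-only regions. Without flanks there were 15 TGFβ-only regions and 11 with a TEAD match. With flanks of 50 kb there were 75 TGFβ regions, 41 of them absent from the vehicle list, 2 vehicle-only regions and 34 10 min regions that overlap a vehicle region. The TEAD match, found in 17 TGFβ window regions, was found in 4 with the longer letters and in 33 within 500 bp. The number of members with a TGFβ-only region and of members with a TSS region in the TGFβ and 10 min lists stayed within 1.5 times in every setting run for them. At the edge of the 20 kb windows, a region at Wwtr1 lay 19874 to 19895 bp outside the gene and was kept in every list, and a TGFβ region 20934 bp outside Ankrd1 was left out.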
